A study of Homo sapiens with 6 samples.

Results

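The genes described here encode the building blocks of the nuclear pore and the carriers that ferry cargo through it. They were chosen by name from the authors' deposited table, as the rows whose symbol is NUP followed by a number, KPNA or KPNB with a digit, IPO with a number, XPO with a digit or T, or TNPO with a digit. The rule found 45 of 15794 human genes, 22 of them NUP rows and 23 transport receptors. The nuclear pore complex is a ring-shaped channel in the nuclear envelope, built from scaffold rings, a membrane anchor, filaments and a central mesh of unstructured repeats. Importins bind cargo in the cytoplasm and release it in the nucleus on contact with the small GTPase Ran loaded with GTP, whereas exportins bind cargo together with Ran-GTP and release it outside. Dividing cells take pores apart at mitosis and reassemble them afterwards, and several receptors double as regulators of spindle assembly.

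The cells were eHAP, an engineered haploid human line of leukaemic origin, expressing Cas9 and grown with 10% fetal bovine serum. All 6 samples received a plasmid encoding guides and a puromycin resistance gene, were kept under puromycin between 24 and 72 h after transfection, and were collected on day 5. Guides against TFDP1 were used in 3 biological replicates (genotype label knockout), and 3 control replicates carry the labels NC, wild-type and no knockout gene. What guide the control plasmid carried, and whether the targeted cells were a pool or clones, is not given in the sources. Each sample held 500000 eHAP cells mixed with 10000 Drosophila S2 cells as a spike-in, and polyadenylated RNA was sequenced.

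The authors' deposited table gives a single log2 fold change between the groups for each gene, with its mean level in CPM (read counts scaled to library size), likelihood ratio, p-value and adjusted p. No value per sample was used here, so neither the spread between replicates, nor the overlap of the groups, nor the library depth is known. The error given below is an approximate standard error, the size of the log2 fold change divided by the square root of its likelihood ratio. TFDP1 (chr13:113584721-113641470 of GRCh38, plus strand), which encodes the DNA-binding partner of the E2F factors, had a log2 fold change of 1.17 (approximate SE 0.0323) at 226 CPM in the authors' deposited table (adjusted p = 1.08e-283). Which group is the numerator is not stated, and a Cas9 cut need not lower the transcript, so TFDP1 is no check of the labels. A positive gene is therefore one that differed in the same direction as the TFDP1 transcript, and a negative gene one that differed in the opposite direction. The list for blood cells named 12 genes, and 8 had a row, at a median level of 0.801 CPM. RUNX1 at 18.1 CPM, KIT at 15.3 and ITGA2B at 5.31 were the most abundant, and PTPRC had no row. Over the blood, fibroblast, epithelial and neuronal marker lists, 21 of 30 genes were present, with levels from 0.161 to 487 CPM. Of these 21, 2 were positive (9.52%), 12 negative (57.1%) and 7 not called, beside 17.3% and 22.2% of all genes. Negative calls fell on 5 of 6 fibroblast, 3 of 3 epithelial, 2 of 4 neuronal and 2 of 8 blood genes. The part of these 21 genes in the results on the pore genes was not tested.

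The nuclear transport machinery lay mainly on the positive side, by small amounts. By the authors' deposited table, 24 of the 45 genes were positive at an adjusted p under 0.05, 5 were negative and 16 were not called. That is 53.3% positive and 11.1% negative, beside 17.3% and 22.2% over all genes, of which 39.5% were called in either direction. Scarce genes were called less often, and 41 of the 45 reached the median level, 23.5 CPM. At those levels 25.4% of all genes were positive and 26.5% negative, against 56.1% and 12.2% of the 41. The median log2 fold change of the 45 genes was 0.13, beside -0.03 over all genes, and 35 of them were above 0. Only NUP62CL among the called genes passed 1.5-fold, and the median called gene differed by 1.18-fold.

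**Figure D1:**
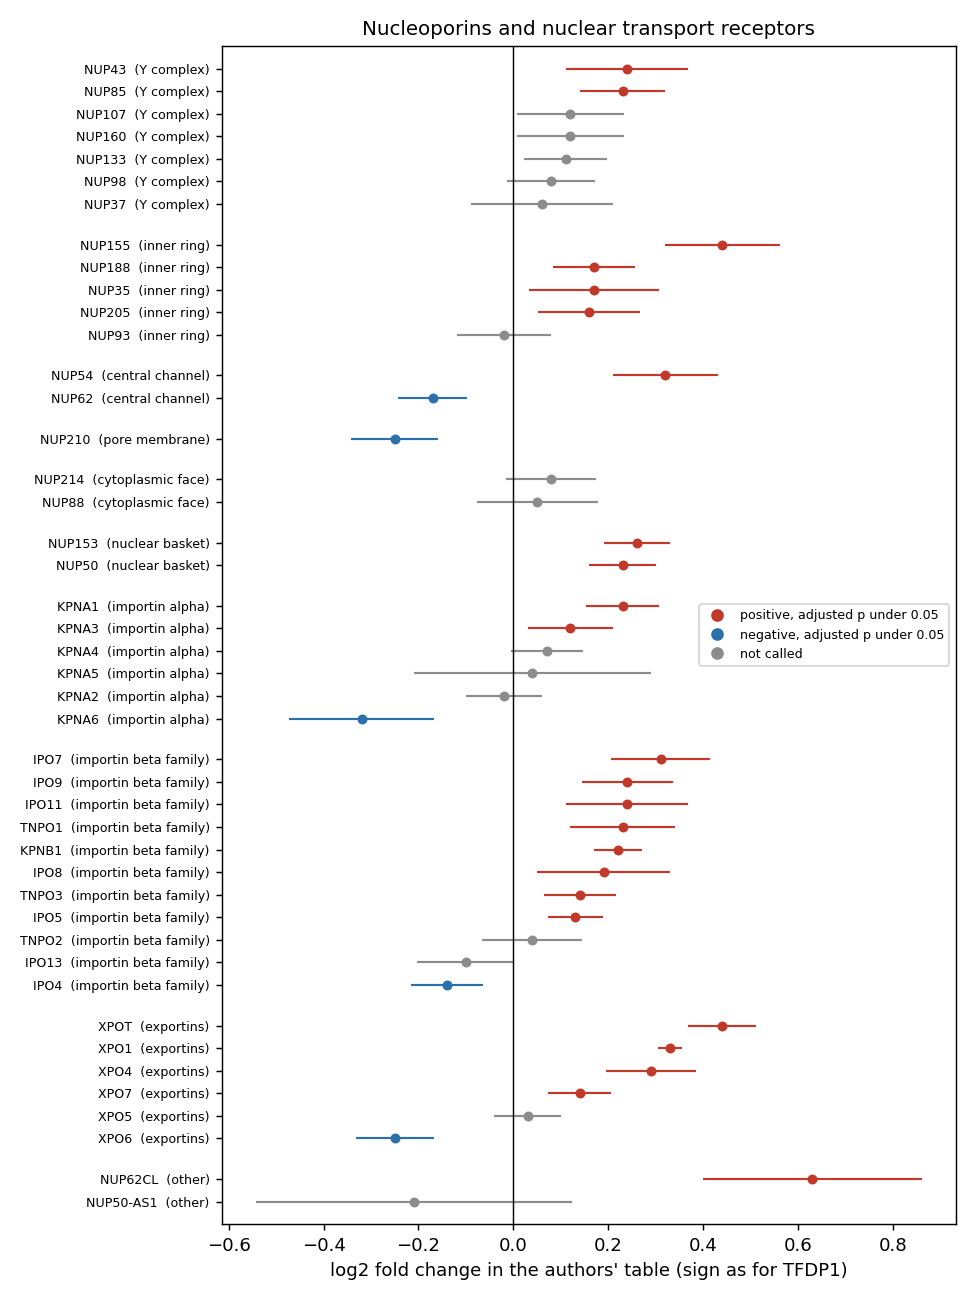
Log2 fold change of 44 of the 45 genes in the authors' deposited table, grouped by role, with bars of 1.96 approximate standard errors; red marks positive and blue negative genes at an adjusted p under 0.05, grey the rest. Most points sit between 0 and 0.45, with KPNA6, XPO6, NUP210, NUP62 and IPO4 on the negative side; NUP210L, whose bar runs from -1.65 to 1.32, is left out.

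Transcripts of these genes were long and low in GC content. The longest annotated transcript had a median length of 5532 bases in 44 matched genes against 3488 over all matched genes, and a median GC content of 44.1% against 48.8%. GC content went with the fold change across the table, and length less so. Across all 14777 matched genes Spearman's rho between GC content and log2 fold change was -0.27, across the 7650 at or above the median level -0.37, and across the 44 genes -0.59. For log2 length rho was 0.12, 0.22 and 0.07 in the same order. These are correlations across genes that share the same libraries, given as a description. With trends on length and GC content removed, 17 of 44 genes were positive, 3 negative and their median was 0.08, beside 18.1% positive and 20.2% negative among all matched genes and a median of -0.01. Whether length or GC content has a part in the result beyond that was not tested.

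The share of positive genes moved with the call rule and the centring, for all genes as well as for these. With a minimum change of 1.2-fold, 7 of the 45 were positive and 1 negative, beside 10.4% and 15.3% of all genes in the authors' deposited table. At an adjusted p under 0.01, 20 were positive and 5 negative, beside 13.1% and 17.4%. With the median gene set to 0 and p recomputed, 28 were positive and 5 negative, beside 20.4% and 20.5%. With the median ribosomal protein gene set to 0, 31 were positive and 4 negative, beside 26.8% and 16.1%.

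The pore scaffold consists of outer Y-shaped complexes and an inner ring. All 7 Y complex genes matched by the name rule were above 0, but only NUP85 and NUP43 were called. That is 28.6% positive, beside 17.3% of all genes. All 7 reached the median level, where 25.4% of all genes were positive. Of the Y subunits that the rule does not reach, SEC13 was negative at -0.15 (adjusted p = 0.0167) and SEH1L was not called at 0.08. NUP85, an arm of the Y, had a log2 fold change of 0.23 (SE 0.0455, adjusted p = 5.83e-06) in the authors' deposited table. NUP43, a propeller-shaped protein of the same complex, was at 0.24 (SE 0.0655, adjusted p = 0.00124), and its exons overlap those of PCMT1 on the opposite strand. NUP133, NUP107 and NUP160, which form the stem and an arm, at 0.11, 0.12 and 0.12, lay just outside the threshold with adjusted p of 0.0521, 0.0947 and 0.0983, while NUP35 just inside it had 0.0482. All 3 were called positive with either the median gene or the ribosomal protein genes set to 0. That took the positive genes among the 7 from 2 to 5 and 6. With length and GC trends removed NUP133, NUP107 and NUP160 stood at 0.04, 0.00 and 0.05 and were not called. Of the 7 genes 2 were then again positive. NUP98, whose precursor is cut into the mobile protein NUP98 and the Y subunit NUP96, was at 0.08, and NUP37, another propeller of the Y, at 0.06.

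The inner ring gave the largest change of any scaffold gene. Of its 5 genes 4 were positive, with values from 0.16 to 0.44. That is 80%, beside 17.3% of all genes and 25.4% of those at or above the median level, which all 5 reached. NUP205 and NUP35 lost their calls both at an adjusted p under 0.01 and with length and GC trends removed, which left 2. NUP155 (chr5:37288137-37371181, minus strand), which links the ring to the membrane, differed by 1.36-fold, a log2 fold change of 0.44 in the authors' deposited table (approximate SE 0.0619, adjusted p = 1.35e-11). The large paralogous scaffolds NUP188 and NUP205 stood close together at 0.17 (adjusted p = 5.19e-04) and 0.16 (adjusted p = 0.0108). NUP35, a small membrane-binding subunit that contacts NUP155, was at 0.17. NUP93, which recruits the channel proteins to the ring, was the exception at -0.02 (SE 0.0507, adjusted p = 0.776).

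The channel genes went opposite ways. NUP54 (chr4:76114659-76148515, minus strand), which carries phenylalanine-glycine repeats that receptors bind, had a log2 fold change of 0.32 (SE 0.0567, adjusted p = 2.03e-07) in the authors' deposited table. NUP62 (chr19:49906825-49929763, minus strand), its partner in the same trimer, was at -0.17 (SE 0.0371, adjusted p = 2.61e-05). The exons of NUP62 overlap those of ATF5, which lies on the opposite strand and was at -0.19, and those of IL4I1. The sources do not say whether counting used strand, so reads of NUP62 and ATF5 may not be told apart. With trends on length and GC content removed NUP62 stood at -0.06 and was not called. NUPL1, an older symbol of the third subunit NUP58 that the name rule does not reach, was positive at 0.21 (adjusted p = 1.05e-04).

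NUP210 (chr3:13316235-13420309, minus strand), a glycoprotein that spans the pore membrane, had a log2 fold change of -0.25, a difference of 1.19-fold (SE 0.0467, adjusted p = 9.45e-07), in the authors' deposited table. NDC1, another membrane nucleoporin outside the name rule, was positive at 0.25 (SE 0.034, adjusted p = 1.87e-12), and POM121, the third, was not called at 0.06. The called membrane anchors thus differed in sign. On the nuclear side both basket genes matched by the name rule were positive. Over all genes 17.3% were positive, and 25.4% of those at or above the median level, which both reached. TPR, a basket protein that the rule does not reach, was also positive, at 0.33 (SE 0.0874, adjusted p = 7.65e-04). NUP153 (chr6:17615035-17706834, minus strand), which docks the basket and binds importins, was at 0.26 (SE 0.0357, adjusted p = 7.37e-12), and NUP50, a mobile partner of NUP153 that helps release cargo from importin alpha, at 0.23 (SE 0.0362, adjusted p = 1.73e-09). On the cytoplasmic side NUP214, the docking site of the exportin XPO1, was at 0.08 (adjusted p = 0.182) and its partner NUP88 at 0.05 (adjusted p = 0.586), and neither was called. RANBP2, the large filament protein of that side, which the name rule does not reach, was positive at 0.21 (SE 0.0559, adjusted p = 0.00107).

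Importin alpha proteins are the adaptors that read the classical nuclear localisation signal. Their genes did not share a direction, with 2 positive, 1 negative and 3 not called of 6. That is 33.3% and 16.7%, beside 17.3% and 22.2% of all genes. At or above the median level, which 5 of the 6 reached, 25.4% of all genes were positive and 26.5% negative. KPNA1 had a log2 fold change of 0.23 (SE 0.0395, adjusted p = 6.70e-08) and KPNA3 one of 0.12 (SE 0.0454, adjusted p = 0.033) in the authors' deposited table. With length and GC trends removed KPNA3 stood at 0.03 and was not called, and KPNA1 stood at 0.10 and stayed called (recomputed adjusted p = 0.0347). KPNA6 (chr1:32108038-32176568, plus strand), of the same subfamily as KPNA1, had the lowest value of all called members at -0.32 (SE 0.0778, adjusted p = 1.99e-04). Its standard error was larger than that of 97% of the 1511 genes within 0.5 log2 CPM. With trends on length and GC content removed KPNA6 stood at -0.39, and it remained called under each alternative tried. KPNA2, the importin alpha gene commonly linked to proliferation, was at -0.02 (SE 0.0409, adjusted p = 0.808), an interval of 1.96 standard errors from -0.10 to 0.06. Per kilobase of its longest transcript KPNA2 was the most abundant of the 44 genes with a length, at 236 CPM per kb, ahead of KPNB1 at 165 and IPO5 at 114. KPNA4 was at 0.07 (adjusted p = 0.128). KPNA5, at 0.756 CPM per kb the scarcest importin alpha here, was at 0.04 with an SE of 0.127, so that a change of the size seen in KPNA1 was not detectable at its level.

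Of the 11 genes of the importin beta family 8 were positive, 1 was negative and 2 were not called. That is 72.7% positive, beside 17.3% of all genes and 25.4% of those at or above the median level, which all 11 reached. With length and GC trends removed 4 were positive and 0 negative, beside 18.1% and 20.2% of all matched genes. With a minimum change of 1.2-fold 1 was positive, beside 10.4% of all genes. KPNB1 (chr17:47649476-47685505, plus strand), which encodes importin beta 1, the carrier that pairs with importin alpha, differed by 1.17-fold, a log2 fold change of 0.22 (SE 0.026, adjusted p = 3.91e-16) in the authors' deposited table. IPO7, a carrier of ribosomal proteins and other cargo, was at 0.31 (SE 0.0535, adjusted p = 9.11e-08), and its paralogue IPO8 at 0.19 (SE 0.0711, adjusted p = 0.0294). IPO9, a carrier of histones H2A and H2B, was at 0.24 (SE 0.0491, adjusted p = 1.13e-05), whereas IPO4, which carries histones H3 and H4, was at -0.14 (SE 0.0391, adjusted p = 0.0016). The receptors with histone cargo thus lay on both sides of 0. IPO5, which also carries histones and ribosomal proteins, was at 0.13 (SE 0.0295, adjusted p = 1.30e-04), and IPO11 at 0.24 (SE 0.0657, adjusted p = 0.00124). The exons of IPO11 overlap those of KIF2A, itself at 0.26, and those of IPO4 overlap REC8 on the opposite strand. IPO4 lost its call both with ribosomal protein genes set to 0 and with length and GC trends removed, at -0.06 and -0.02. With the trends removed IPO5, IPO8 and IPO11 also lost theirs, at 0.02, 0.10 and 0.15.

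Transportins read other import signals, and their genes differed in size. TNPO1, the carrier of proteins with proline-tyrosine signals such as hnRNP A1, was at 0.23 (SE 0.0565, adjusted p = 2.56e-04) in the authors' deposited table, and its paralogue TNPO2 at 0.04 (SE 0.0537, adjusted p = 0.655). The difference between them was 0.19 and was not tested, since both values come from the same libraries. With length and GC trends removed TNPO1 stood at 0.05 and was not called. TNPO3, which imports serine-arginine-rich splicing factors, was at 0.14 (SE 0.0386, adjusted p = 0.0019), and IPO13, which both imports and exports, was at -0.10 (adjusted p = 0.154).

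Exportins held the largest change among the receptors. Of 6 genes 4 were positive (66.7%) and 1 negative (16.7%), beside 17.3% and 22.2% of all genes. All 6 reached the median level, where 25.4% of all genes were positive and 26.5% negative. XPOT (chr12:64404350-64451127, plus strand), the exporter of transfer RNA, differed by 1.36-fold, a log2 fold change of 0.44 (SE 0.0367, adjusted p = 1.02e-31) in the authors' deposited table. XPO1 (chr2:61477849-61538626, minus strand), also called CRM1 and the exporter of proteins with leucine-rich signals, was at 0.33, or 1.26-fold, and XPO4, known for carrying the translation factor eIF5A, stood at 0.29 (SE 0.0483, adjusted p = 2.29e-08). XPO7 was at 0.14 (SE 0.034, adjusted p = 2.24e-04), and XPO5, the exporter of microRNA precursors, at 0.03 (adjusted p = 0.634). XPO6 (chr16:28097979-28211920, minus strand), the exporter of actin with profilin, was negative at -0.25 (SE 0.042, adjusted p = 5.26e-08). Between the ends of this family the log2 values thus ran from -0.25 to 0.44. With length and GC trends removed no exportin lost its call. XPOT then stood at 0.33, XPO1 at 0.19, XPO7 at 0.12, XPO4 at 0.11 (recomputed adjusted p = 0.047) and XPO6 at -0.20.

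The adjusted p of XPO1, 9.28e-135, was the smallest of the 45, although XPOT, NUP155 and NUP62CL had larger fold changes. Its approximate standard error of 0.0134 was below that of 93.5% of the 216 genes within 0.5 log2 CPM, whose median was 0.0434. XPO1 sat in a separate band of 45 abundant genes with a standard error under 0.025, a bound chosen after the values were seen. KPNB1 lay just outside that bound, at 0.026. With the median standard error of the genes near it in level XPO1 still passed, at an adjusted p of 2.62e-13.

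**Figure D2:**
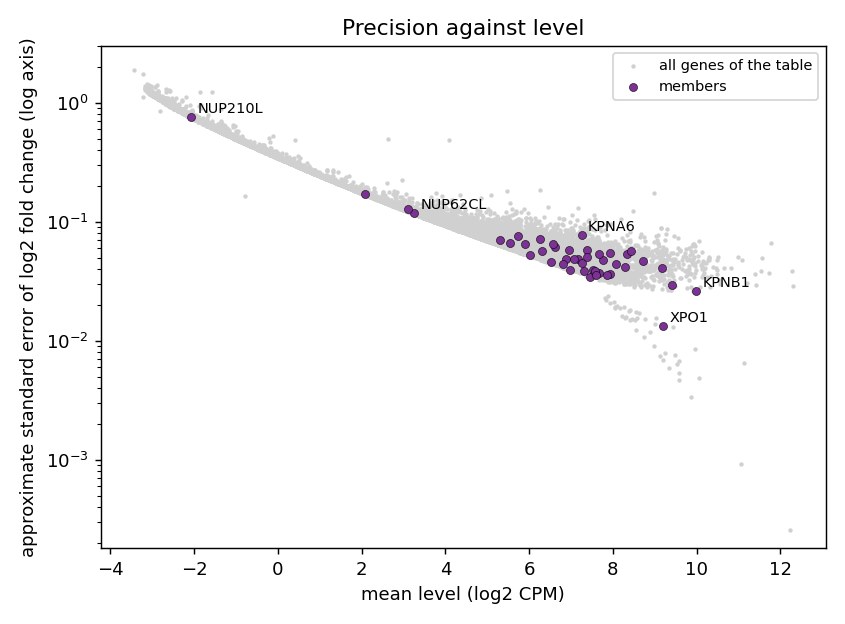
Approximate standard error of the log2 fold change (log axis) against mean level in log2 CPM for all 15794 genes (grey) and the 45 pore and receptor genes (purple). The error falls with level along a main band, KPNA6 lies near its upper edge, and XPO1 lies in the lower band of abundant genes.

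The remaining rows matched by the name rule were a paralogue of each of 2 nucleoporins and an antisense RNA. NUP62CL (chrX:107123427-107206433, minus strand), which resembles the C-terminal part of NUP62, had the largest change of the 45, at a log2 fold change of 0.63 or 1.55-fold (SE 0.118, adjusted p = 1.03e-06), in the authors' deposited table. Its level was 5.45 CPM per kb against 56.2 for NUP62, and the sign of the pair differed. NUP50-AS1, named as antisense to NUP50, was at -0.21 with an SE of 0.17 (adjusted p = 0.371). NUP210L, a paralogue of NUP210, was at -0.17 with an SE of 0.759 at 0.238 CPM, too scarce for a change of this size to be detectable.

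**Figure D3:**
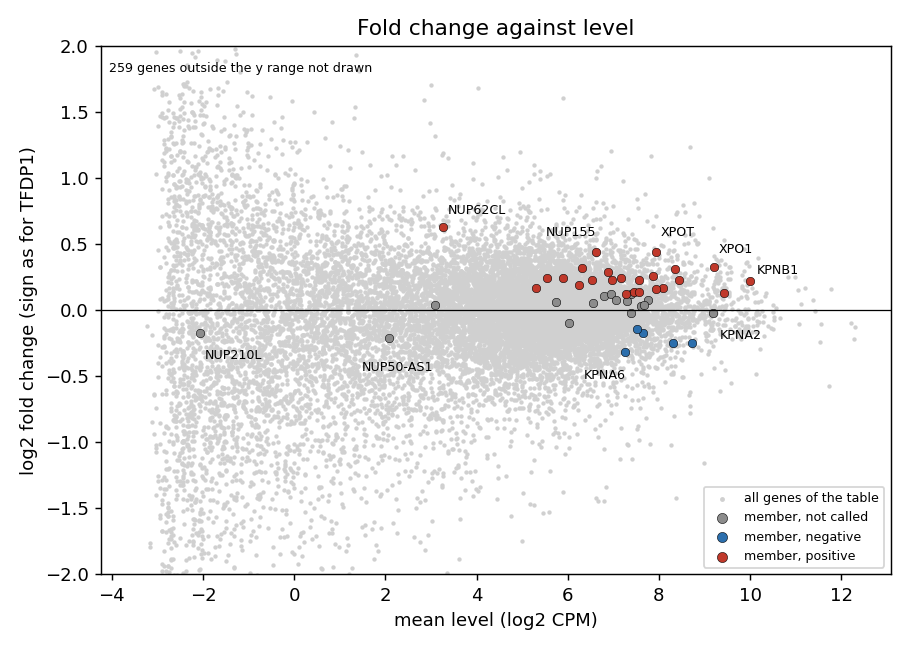
Log2 fold change against mean level in log2 CPM for the genes of the authors' deposited table (grey; 259 genes with an absolute value above 2 are not drawn) and the 45 pore and receptor genes, coloured by call. Most of the 45 lie between about 5 and 10 log2 CPM and within 0.45 of 0; NUP62CL is the highest of them and KPNA6 the lowest called.

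The 5 negative genes were mostly rich in GC. Longest-transcript GC content was 54.4% in XPO6, 58.3% in NUP210, 58.4% in NUP62 and 59.4% in IPO4, and 47.5% in KPNA6, beside a median of 41.3% in the 24 positive genes. Of the 6 genes with the highest GC content, from 54.4% to 59.4%, 5 were below 0 in the authors' deposited table, the sixth being TNPO2 at 0.04. Of the other 38, 4 were below 0. This split was drawn after the values were seen and has no test. With length and GC trends removed, XPO6, NUP210 and KPNA6 stayed negative and called, at -0.20, -0.21 and -0.39.

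Related genes whose names the rule does not reach were grouped by function. Of 13 other pore proteins 7 were positive (53.8%) and 1 was negative (7.69%), beside 17.3% and 22.2% of all genes. All 13 reached the median level, where these shares were 25.4% and 26.5% of all genes. The median log2 fold change of the 13 was 0.13. With length and GC trends removed 3 of 12 were positive and 0 negative, beside 18.1% and 20.2% of all matched genes. AHCTF1, or ELYS, which seeds pore assembly on chromatin after mitosis, was at 0.25 (SE 0.0506, adjusted p = 4.53e-06) in the authors' deposited table, close to NDC1. SEC13, a Y complex subunit shared with the vesicle coat COPII, was the negative one at -0.15 (SE 0.0519, adjusted p = 0.0167).

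Of the 7 genes of the Ran cycle 3 were positive (42.9%) and 2 negative (28.6%), with a median of 0.07. Over all genes 17.3% were positive and 22.2% negative. At or above the median level, where 6 of the 7 lay, these shares were 25.4% and 26.5%. RANBP1, a cofactor that helps to dismantle export complexes, was at 0.32 (SE 0.0512, adjusted p = 4.54e-09) and RCC1, the chromatin-bound exchange factor that loads Ran with GTP, at 0.13 (adjusted p = 2.58e-11) in the authors' deposited table. RCC1 lay in the same lower band of standard errors as XPO1, and with the median of genes near it in level its adjusted p was 0.00728. The negative genes were NUTF2, which returns Ran-GDP to the nucleus, at -0.19 (SE 0.0475, adjusted p = 2.86e-04), and RANGAP1, which triggers GTP hydrolysis at the cytoplasmic face, at -0.13 (SE 0.0357, adjusted p = 0.0016). Over all the related lists 20 of 47 genes were positive (42.6%) and 3 negative (6.38%), beside 17.3% and 22.2% of all genes. At or above the median level, which 43 of the 47 reached, 25.4% of all genes were positive and 26.5% negative. With length and GC trends removed 17 of 46 related genes were positive and 2 negative, beside 18.1% and 20.2% of all matched genes. With ribosomal protein genes set to 0, 26 of the 47 were positive and 1 negative, beside 26.8% and 16.1% of all genes.

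Of 3 further receptors in the table only CSE1L, the exportin that recycles importin alpha, was called. It was at 0.14 (SE 0.0377, adjusted p = 0.00113) in the authors' deposited table. The share positive was 33.3%, beside 17.3% of all genes and 25.4% of those at or above the median level, which all 3 reached. With length and GC trends removed CSE1L lost this call. Of the 3, 0 were then positive and 1 was negative, beside 18.1% and 20.2% of all matched genes. Messenger RNA leaves the nucleus by a separate route through the adaptor complex TREX. Of 19 genes listed for it 5 were positive (26.3%), 14 were not called and 0 were negative, beside 17.3% and 22.2% of all genes. At or above the median level, which 16 of the 19 reached, 25.4% of all genes were positive and 26.5% negative. DDX39A, an RNA helicase, was at 0.46 (SE 0.0358, adjusted p = 1.80e-35) and THOC1, a TREX subunit, at 0.34 (SE 0.0704, adjusted p = 1.03e-05). With ribosomal protein genes set to 0, 9 of the 19 were positive, beside 26.8% of all genes. The paralogue DDX39B was listed at only 0.987 CPM, too scarce for a small change to be detectable. Of 5 spindle proteins that importins hold inactive until Ran-GTP frees them, 4 were positive. That is 80%, beside 17.3% of all genes and 25.4% of those at or above the median level, which all 5 reached. NUSAP1 was at 0.77 (SE 0.0412) and KIFC1 at 0.58 (SE 0.0483). These are larger than any value of a named importin or exportin, and the difference was not tested.

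**Figure D4:**
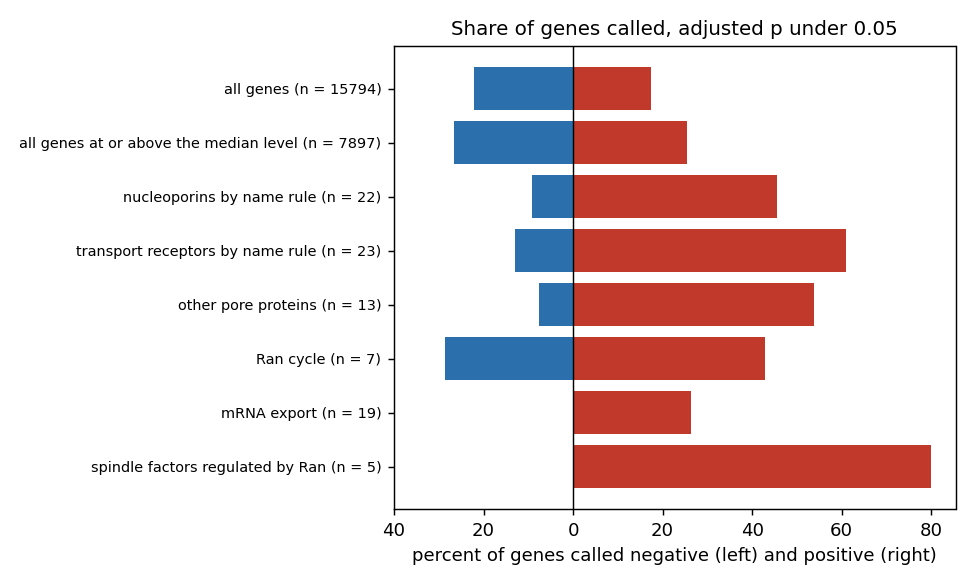
Percent of genes called negative (bars to the left) and positive (bars to the right) at an adjusted p under 0.05 in the authors' deposited table, for all genes, genes at or above the median level, nucleoporins, transport receptors and the related lists, with the number of genes in brackets. The positive bar is 17.3% for all genes, 25.4% at or above the median level, 45.5% for nucleoporins and 60.9% for receptors. The lists are as small as 5 genes.

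Promoters of these genes were searched for the letters of E2F sites, since TFDP1 encodes the partner through which E2F factors bind DNA. RefSeq promoter windows on GRCh38.p14 were matched by symbol for 39 of the 45 genes, and the 250 bases before each start site were read on both strands for TTTCCCGC, TTTCGCGC, TTTGCCGC and TTTGGCGC. A match was found in 1 of the 39 genes (2.56%), beside 5.4% of the 11251 genes of the table that have a window and 3.4% of all 27305 genes with one. A gene with several starts has several windows, and the 39 genes had 51. The match lay 14 bases before a start of IPO11, on the plus strand at chr5:62412729-62412762, and is shown because it is the only one found, with the E2F letters in capitals.
IPO11: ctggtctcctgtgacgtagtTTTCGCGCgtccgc

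A second pair of letter strings was searched because late cell cycle genes often carry them, the CHR element (TTTGAA or TTCGAA) and the CCAAT box (CCAAT), both strands. The CHR letters were in 9 of 39 genes (23.1%), beside 13.6% of genes of the table with a window, and CCAAT was in 19 (48.7%), beside 40.8%. Of the positive genes by the authors' deposited table, 5 of 21 held CHR letters (23.8%) and 8 held CCAAT (38.1%), and among those not called 4 of 13 (30.8%) and 9 of 13 (69.2%). CHR letters were thus no more frequent in the positive genes than in those not called, by counts too small to compare. The stretches around the CHR letters of the 5 positive genes are shown 5′ to 3′ on the strand of each gene, on GRCh38.p14, with the matching letters in capitals (TTCAAA is TTTGAA read on the other strand).
IPO11 (chr5:62412640-62412675, plus strand): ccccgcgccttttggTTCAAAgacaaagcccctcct
IPO7 (chr11:9384455-9384490, plus strand): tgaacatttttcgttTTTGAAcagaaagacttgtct
NUP153 (chr6:17707146-17707175, minus strand): aagtgtcttTTCAAAgtctaatttacagcc
NUP205 (chr7:135557737-135557772, plus strand): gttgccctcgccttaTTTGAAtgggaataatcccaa
NUP35 (chr2:183124393-183124428, plus strand): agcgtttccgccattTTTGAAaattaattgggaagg
The match nearest to its start site is that of NUP35, 35 bases before it, and the farthest that of NUP153, 241 bases before it. A match of letters is a description of the sequence and not a binding site, and the windows say nothing of sites farther away.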

How the data were processed

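RNA from 3 TFDP1 knockout and 3 control samples was sequenced. Builds hg38 and dm6 and the tools edgeR, featureCounts, HISAT2 and Trimmomatic are listed per the submitters' processing notes; versions, scaling, strand setting and the numerator of the fold change are not given in the sources. The log2 fold change, the log2 CPM level, the likelihood ratio (a score per gene), the p-value and the adjusted p are the authors' own, per the file headers, in 15794 deposited rows with a median level of 23.5 CPM. No values per sample entered, so depth is unknown, no count test was possible, and p-values measure only the spread between these samples as the authors modelled it. Genes were called at the authors' adjusted p under 0.05, which by its ratio to p was adjusted over about 18696 rows, more than were deposited. With p adjusted over the deposited rows alone NUP133 was also called (adjusted p = 0.0445), and no call was lost. Trends on length and GC content were removed by lowess (span 0.3, statsmodels 0.14.6). For this and for re-centring, z was the shifted log2 fold change over the approximate standard error, with Benjamini-Hochberg adjustment. The re-centring was tested on simulated data, and the removal of trends was not. Lengths, GC content and positions came from GENCODE 29 on GRCh38 by symbol (14777 genes, 93.6%), with the longest transcript of each gene, and promoters from RefSeq on GRCh38.p14. Values were given for TFDP1, each called gene, uncalled genes of classes without a call, and per related list the 2 called genes per direction with the smallest p; further genes named were chosen after their values were seen. Genes, lists and rules were chosen with earlier results of these data known. Pandas 2.3.3, numpy 2.4.6, scipy 1.17.1 and matplotlib 3.10.9 were used under Python 3.11.15.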

Additional observations from a re-analysis of the deposited data

How the results depend on the processing

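Of the 24 positive and 5 negative genes, 20 kept call and direction under every alternative run for them other than a minimum change of 1.2-fold (NUP62CL lies below the median level and was not tested among the genes at or above it), and no called gene changed sign under any alternative. With that minimum 7 positive and 1 negative genes were left, and 8 positive and 0 negative of the 47 related genes. Over all genes 10.4% were then positive and 15.3% negative. With trends on length and GC content removed 3 genes were negative, and 9 called genes lost their call. Without the 9 genes that overlap another gene of the table, an alternative chosen after seeing the data, 20 were positive and 3 negative. With ribosomal protein genes set to 0, which shifts every gene by 0.08 on the log2 scale, their median was 0.21 and 1 related gene was negative. The lower counts without the 9 overlapping genes follow from leaving those genes out. For the other changes to the counts above the cause was not tested. No paired analysis was possible because the table holds no values per sample, and for the same reason no replicate could be left out. CHR letters were in 6 of 39 genes (15.4%) within 150 bases of the start, against 9 within 250. Of the genes of the table with a window 6.99% held them within 150 bases. Of the 21 positive genes 2 then held them (9.52%), IPO11 and NUP35, and of the 13 not called 4 did (30.8%). Depth per library is unknown.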
